A study of Mus musculus with 8 samples.

Results

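Chaperones are proteins that help other proteins fold, and the genes described here encode the heat shock protein families Hsp70, Hsp110, Hsp90, Hsp60 with Hsp10, the small heat shock proteins, the J proteins (Dnaja, Dnajb and Dnajc) and the cytosolic chaperonin CCT. They were chosen by mouse gene symbol alone (Hsp followed by a, b, d, e, h or 90, then Dnaja, Dnajb, Dnajc, Cct2 to Cct8 and Tcp1). Of 11723 genes in the table, 69 matched. RefSeq annotates 101 genes with such symbols, and the other 32, among them Hspb1 and many pseudogenes, were not analysed here. Of the 69 genes 67 passed the filter on low values (at least 1 CPM in at least 4 of 8 libraries) and were tested, and the near-identical inducible Hsp70 genes Hspa1a and Hspa1b lay below it.

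The cells were CD8 T cells of BALB/c mice aged 12 days, taken from peripheral lymph nodes and sorted by flow cytometry, and their total RNA was sequenced with a stranded kit. The control group (WT, 4 libraries) and the mice without interleukin-2, a growth cytokine of T cells (IL-2-KO, 4 libraries), were labelled as biological replicates. WT libraries 1 to 4 came from 115000000, 28700000, 1300000 and 1300000 cells of 5, 5, 3 and 2 pooled mice. IL-2-KO libraries 1 to 4 came from 26700000, 42600000, 1100000 and 400000 cells, with no pooling stated. These cell numbers are the labels' own, the first looks high for lymph nodes of so few young mice, and they were not checked here. The series' design text allows heterozygous mice among the controls and names spleen as a further source, and neither is on the sample labels. The labels give no detail of the Il2 allele. Values are counts scaled to library size by the TMM method (CPM). Where single libraries are not listed, a group's level is its mean ± SD (n = 4). A change is a difference of log2(CPM + 0.5), IL-2-KO minus WT, which understates the change of low genes. It was tested by limma over all 11530 genes that passed the filter, with Benjamini-Hochberg adjustment, and a gene is said to rise or fall where its adjusted p was under 0.05.

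Hsp70 proteins bind exposed hydrophobic stretches of unfolded clients in a cycle driven by ATP. J proteins deliver clients and start ATP hydrolysis, while nucleotide exchange factors such as the Hsp110 proteins reopen the Hsp70. Hsp90 receives partly folded clients, many of them kinases and transcription factors. The ring-shaped chaperonins, CCT in the cytosol and Hsp60 in mitochondria, enclose their clients, and actin and tubulin are the best known clients of CCT. Many of these genes are induced through heat shock factors, which bind inverted repeats of GAA, and those of the endoplasmic reticulum through the unfolded protein response. T cell activation and growth are known to raise the demand for folding.

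Promoter sequences are shown for 4 genes to which the results return, because their start sites hold the textbook element of either response. The windows run from 250 bases before to 50 after an annotated start (RefSeq, GRCm38.p6, a C57BL/6J reference, whereas these mice were BALB/c), and 56 of the 69 genes had one. The heat shock element was searched as 3 alternating units (GAA, 2 bases, TTC, 2 bases, GAA) on both strands, with overlapping matches counted separately. It was found in 0.603% of all 32851 windows, and among these genes in those of Hspd1, Hspe1, Dnajb6 and Hsph1. Hspd1 and Hspe1 lie head to head, and the Hspe1 window holds 2 overlapping matches, in capitals below, which a window of Hspd1 on the other strand (chr1:55087883-55088182) also covers. The endoplasmic reticulum stress element (CCAAT, 9 bases, CCACG, on both strands) was found in 0.119% of all windows and here in those of Hspa5, Hsp90b1 (2 matches) and Dnajc3, with the match in capitals. A match is a stretch of letters and was not tested as a binding site. Hspa8, Hsp90aa1 and Hsp90ab1 had no window.
Hspe1, chr1:55087898-55088197, + strand: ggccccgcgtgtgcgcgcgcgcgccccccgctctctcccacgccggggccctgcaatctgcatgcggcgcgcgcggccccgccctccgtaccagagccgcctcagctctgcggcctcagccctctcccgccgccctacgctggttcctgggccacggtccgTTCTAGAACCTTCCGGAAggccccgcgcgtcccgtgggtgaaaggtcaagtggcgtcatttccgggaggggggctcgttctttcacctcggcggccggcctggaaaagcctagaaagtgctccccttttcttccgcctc
Hspa5, chr2:34771840-34772139, + strand: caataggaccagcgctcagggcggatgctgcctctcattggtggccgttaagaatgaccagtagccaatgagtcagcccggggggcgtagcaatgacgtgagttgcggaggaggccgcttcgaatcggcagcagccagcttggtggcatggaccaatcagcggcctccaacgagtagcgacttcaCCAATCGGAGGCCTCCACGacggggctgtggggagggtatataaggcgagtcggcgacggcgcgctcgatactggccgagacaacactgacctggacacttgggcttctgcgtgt
Hsp90b1, chr10:86705395-86705694, - strand: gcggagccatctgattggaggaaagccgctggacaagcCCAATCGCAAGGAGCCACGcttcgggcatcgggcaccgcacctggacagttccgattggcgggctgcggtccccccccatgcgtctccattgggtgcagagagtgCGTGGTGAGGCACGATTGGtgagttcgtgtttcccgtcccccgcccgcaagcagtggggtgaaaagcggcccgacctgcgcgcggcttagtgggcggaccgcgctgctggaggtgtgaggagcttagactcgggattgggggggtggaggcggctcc
Dnajc3, chr14:118937682-118937981, + strand: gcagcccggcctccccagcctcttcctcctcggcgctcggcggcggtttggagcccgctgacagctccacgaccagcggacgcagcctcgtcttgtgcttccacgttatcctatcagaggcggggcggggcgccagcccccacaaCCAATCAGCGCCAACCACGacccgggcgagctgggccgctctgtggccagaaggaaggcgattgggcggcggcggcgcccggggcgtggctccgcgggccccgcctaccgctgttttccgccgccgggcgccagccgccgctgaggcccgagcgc

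Libraries held 11872030 to 18399457 counts over the listed genes, and 1 CPM stood for 11.9 to 18.6 counts. All 10 CD8 T cell markers were listed, with a summed level of 7508 to 8419 CPM in WT and 6538 to 7571 in IL-2-KO, none called higher, 1 (Thy1) called lower and a median log2 change of -0.13. Cd8a lay between 1479 and 1979 CPM. WT replicate 2 and IL-2-KO replicate 3 carried more transcripts of other cells. Their summed B cell markers (4 listed, with Ms4a1 and Pax5 not among them) stood at 128 and 315 CPM, against 16.3 to 28.5 in the other 6. Summed myeloid and dendritic markers (8 of 15 listed) stood at 154 and 522, against 42.3 to 60.0. Immediate early genes (20 of 21 listed), which cell handling also induces, summed to 4382 and 3981 there, to 3049.7 in IL-2-KO replicate 1 and to 1741 to 2405 in the other 5. Libraries also differed by transcript length. Over 11324 genes, the deviation of a gene from its mean over the 8 libraries correlated with transcript length at Spearman's rho of 0.06, -0.11, 0.23 and 0.16 in WT replicates 1 to 4 and -0.36, 0.22, -0.30 and 0.28 in IL-2-KO replicates 1 to 4. Long transcripts were thus low in WT replicate 2 and IL-2-KO replicates 1 and 3, and genes are not independent replicates in such a correlation.

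**Figure D1:**
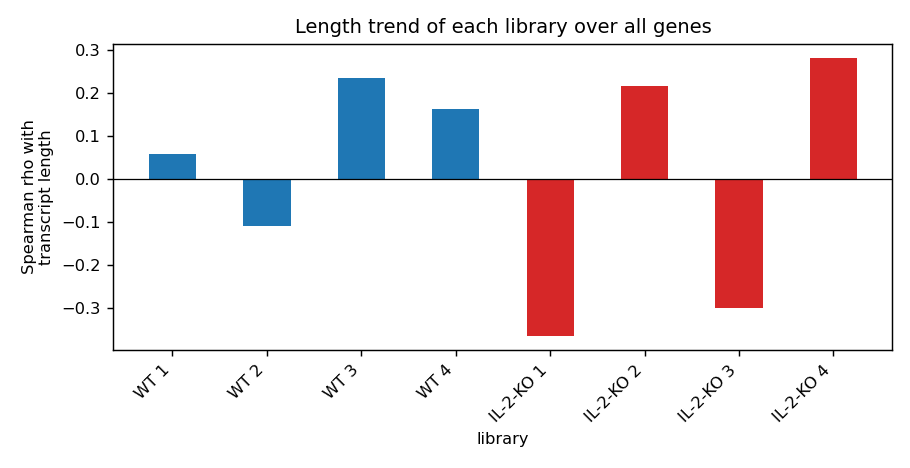
Spearman's rho (vertical axis) between transcript length and a gene's deviation from its mean over all libraries, for each library (horizontal axis; WT blue, IL-2-KO red), over 11324 genes. The bars of WT replicate 2 and of IL-2-KO replicates 1 and 3 point down, and those of the other 5 libraries point up.

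Changes among the chaperone genes were small, and as a group they were called about as often as any other gene. Of the 67 tested, 7 rose in IL-2-KO cells (10.4%, against 11.1% of all genes tested), 4 fell (5.97%, against 8.03%) and 56 did not pass. In either direction 16.4% were called, against 19.2% of all genes, and 29.9% had an unadjusted p under 0.05, against 33.3%. The genes that rose were the cytosolic Hsp70 Hspa8, all 3 Hsp90 genes (Hsp90aa1, Hsp90ab1 and Hsp90b1), the mitochondrial chaperonin Hspd1, the CCT subunit Tcp1 and the histone-binding J protein gene Dnajc9. Those that fell were Dnajc7, Dnajc28, Hspa1l and Hspbap1. None of the 67 reached a 2-fold change in either direction, and the largest rise among those called was 1.39-fold, for Dnajc9. The median change was 0.05 on the log2 scale, with 40 genes above 0 and 27 below, against a median of -0.0097 for all genes tested. Groups lay fully apart for 13 higher and 5 lower genes of the 67, in either direction 26.9%, against 24.2% of all genes tested. Among all 11530 genes, 1490 (12.9%) lay apart as higher and 1296 (11.2%) as lower. Summed over the 69 genes, the level was 9530.0 to 9838 CPM in WT and 10733 to 11169 in IL-2-KO, a sum in which a few abundant genes weigh most.

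In the same comparison 24 of 24 cell cycle genes rose (median log2 change 1.47), against 11.1% of all genes tested. Their summed level was 1199 to 1347 CPM in WT and 2503 to 3119 in IL-2-KO. Summed CD4 and regulatory T cell markers (6 of 6 listed, 1 rose) were at 21.9, 99.2, 23.2 and 16.4 CPM in WT and 77.5, 67.9, 243 and 76.6 in IL-2-KO. All IL-2-KO libraries were above WT replicates 1, 3 and 4, and WT replicate 2 was above all of IL-2-KO but replicate 3. Summed natural killer cell markers (4 of 7 listed, 2 rose) were at 516 to 583 and 548 to 808. The part of these 3 lists, and of the CD8 T cell markers, in the chaperone result was not tested. The trend of each library with GC content and length was then removed, an alternative added after the data were seen. After this, 5 chaperone genes rose and 5 fell, and of all calls 39.8% were higher, against 58.1% before. In either direction 15.2% of the chaperone genes tested were called, against 26.1% of all genes. In bulk RNA, fewer cells of a type and less RNA per cell cannot be told apart. Replicates 3 and 4 of both groups were the 4 libraries of 1300000 or fewer cells. Without them, 0 of the 67 genes passed limma, against 3.33% of all genes tested. At an unadjusted p under 0.05, 3 of the 67 were higher and 2 lower, and each of the 11 called genes kept its direction. Hspa8, Hspd1, Hsp90aa1, Dnajc9 and Hspbap1 passed under the other 20 of 21 alternatives tried.

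**Figure D2:**
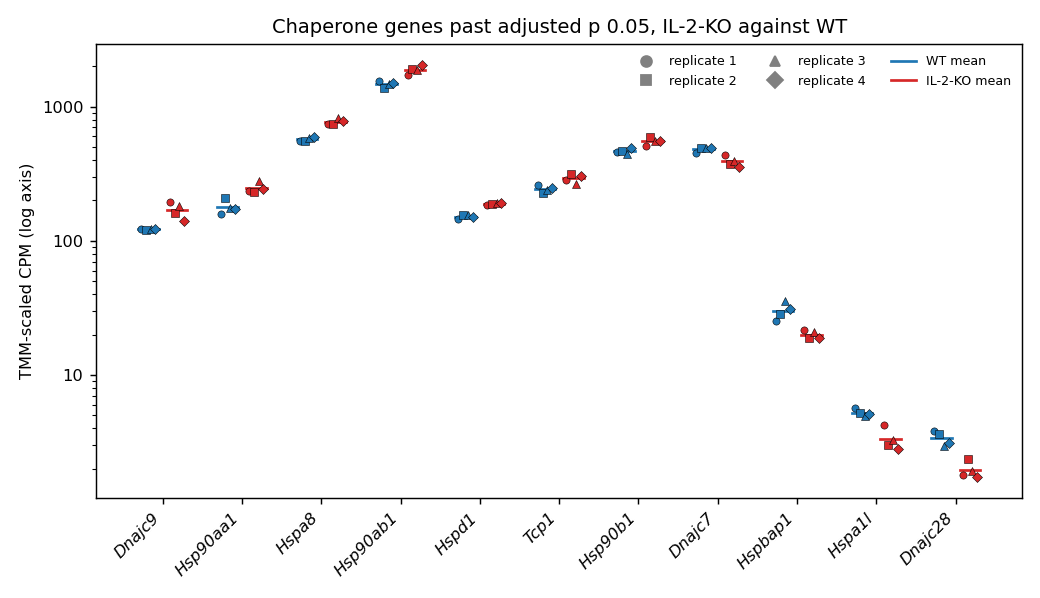
CPM (log axis) of the 11 genes with a limma adjusted p under 0.05, in each WT (blue) and IL-2-KO (red) library, with marker shapes for replicates 1 to 4 and a line at each group's mean. For each gene the 2 groups do not overlap, and the genes are ordered from the largest rise (Dnajc9) to the largest fall (Dnajc28).

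Among the Hsp70 genes, the constitutive cytosolic form Hspa8 (Hsc70; Entrez 15481, GRCm38 chromosome 9, 40801276 to 40805202, + strand) gave the smallest adjusted p. It stood at 555, 549, 579 and 595 CPM in WT replicates 1 to 4 and at 741, 741, 821 and 779.9 in IL-2-KO replicates 1 to 4. All 4 IL-2-KO libraries lay above all WT libraries. Hspa8 rose 1.35-fold (569.7 ± 21.4 to 771 ± 38.2 CPM), a log2 change of 0.43 ± 0.0714 (SE; limma adjusted p = 0.00232, 3.1e-04 to 0.239 over the alternatives tried). Small nucleolar RNA genes lie within Hspa8, so their reads may be counted with it.

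Hspa5 (BiP; Entrez 14828, GRCm38 chromosome 2, 34772090 to 34776529, + strand), the Hsp70 of the endoplasmic reticulum, varied more. WT libraries held 447, 751, 521 and 489 CPM and IL-2-KO libraries 832, 644, 941 and 697. WT replicate 2 exceeded IL-2-KO replicates 2 and 4, and the other 3 WT values lay below every IL-2-KO value. The log2 change of 0.51 (95% interval 0.13 to 0.89) did not pass (limma adjusted p = 0.0622). It passed without WT replicate 2 (log2 change 0.67, adjusted p = 0.00923), without both that library and IL-2-KO replicate 3 (0.00974), with quantile normalization (0.0481) and with array weights (0.00628), and its adjusted p over all alternatives ran up to 0.64. Hspa9, the Hsp70 of the mitochondrial matrix, stood at 251 ± 11.05 CPM in WT and 252 ± 18.2 in IL-2-KO, with a 95% interval of -0.16 to 0.16 for its log2 change. Hspa14, of the ribosome-associated complex, and Hspa13, of microsomes, did not pass either.

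Inducible Hsp70 genes were near the floor. Hspa1a lay between 0.291 and 2.29 CPM and Hspa1b between 0.261 and 4.65, each highest in WT replicate 2 and next in IL-2-KO replicate 3, and reads of these 2 copies may be split between them. Hspa2, known best from testis, followed the same libraries, at 1.14, 7.25, 1.27 and 0.844 in WT and 3.75, 1.21, 8.76 and 3.52 in IL-2-KO. These are the libraries with the most B cell and myeloid transcripts and also with the highest summed immediate early genes (4382 and 3981 CPM). The part of any of these was not tested. Hspa1l (Entrez 15482, GRCm38 chromosome 17, 34972703 to 34979228, + strand), next to Hspa1a and also known best from testis, behaved differently. WT libraries held 5.71, 5.20, 4.94 and 5.11 CPM and IL-2-KO libraries 4.27, 3.01, 3.28 and 2.81, with no overlap. Hspa1l fell by 0.59 in log2 (5.24 ± 0.330 to 3.34 ± 0.644 CPM; limma adjusted p = 0.0275). Its call was lost when WT replicate 1, 3 or 4 or IL-2-KO replicate 2 or 4 was left out (0.00129 to 0.507 over the alternatives), and its low level limits precision. Antisense gene Gm10501 overlaps it.

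Of the nucleotide exchange factors, none of the 3 Hsp110 genes passed limma (1 at an unadjusted p under 0.05), while all 3 log2 changes were above 0. Hspa4l, at 15.6, 18.5, 17.2 and 14.9 CPM in WT and 18.5, 22.4, 20.2 and 20.8 in IL-2-KO, did not overlap between groups (log2 change 0.30, limma adjusted p = 0.0775). The most abundant of the 3, Hspa4, also did not overlap, at 277 ± 11.6 CPM in WT and 303 ± 12.3 in IL-2-KO (adjusted p = 0.2). Hsph1 (Hsp105) spread from 92.9 to 143 CPM within IL-2-KO alone, a range that holds all 4 WT values, and its log2 change of 0.08 turned below 0 without IL-2-KO replicate 2. Hspbp1, which releases nucleotide from Hsp70 without being related to Hsp110, stood at 49.5 ± 4.85 CPM in WT and 47.1 ± 6.85 in IL-2-KO (limma adjusted p = 0.692).

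J proteins made up 40 of the 69 genes, of which 1 rose and 2 fell. Of all genes tested, 11.1% rose, 8.03% fell and 33.3% had an unadjusted p under 0.05. In class A none of 4 genes passed limma (0 at an unadjusted p under 0.05), and in class B none of 10 did (2 at an unadjusted p under 0.05), with changes from -0.48 to 0.18 on the log2 scale. In class C, 1 of 26 rose and 2 fell, and their median change was -0.0073. Dnaja2, the most abundant class A gene by CPM, lay at 219 ± 13.3 CPM in WT and 224 ± 8.38 in IL-2-KO (95% interval of the log2 change -0.12 to 0.18). Dnajb6, a suppressor of protein aggregation, lay at 127 ± 11.2 CPM in WT and 132 ± 10.4 in IL-2-KO (interval -0.13 to 0.25).

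Dnajc9 (Entrez 108671, GRCm38 chromosome 14, 20384638 to 20388910, - strand), a J protein that also chaperones histones H3 and H4, rose. WT libraries were tight, at 122, 119, 122 and 122 CPM, and IL-2-KO libraries spread over 196, 162, 180.1 and 141. The lowest IL-2-KO library exceeded the highest WT library. The rise was 1.39-fold (121 ± 1.29 to 169.6 ± 23.8 CPM), with a log2 change of 0.47 ± 0.0963 (limma adjusted p = 0.00757, 6.2e-04 to 0.0935 over the alternatives). Its transcript has 1631 bases, and IL-2-KO replicates 1 and 3, in which short transcripts stood high, were its highest libraries. After the GC and length correction its log2 change was 0.35 and still passed (adjusted p = 0.0134).

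Dnajc7 (Entrez 56354, GRCm38 chromosome 11, 100582818 to 100620292, - strand), which binds both Hsp70 and Hsp90 through tetratricopeptide repeats, fell. Its levels were 450.4, 491, 493 and 492 CPM in WT and 437, 374, 391 and 356 in IL-2-KO. WT replicate 1 was the lowest of its group and still stood above IL-2-KO replicate 1, the highest of the other. Dnajc7 fell by 0.31 in log2 (482 ± 20.9 to 389 ± 35.0 CPM; limma adjusted p = 0.0231). This call did not hold when WT replicate 3 or 4 or IL-2-KO replicate 2 was left out (5.9e-04 to 0.618 over the alternatives), nor without both WT replicate 2 and IL-2-KO replicate 3. Cnp and Nkiras2 overlap it on the opposite strand, and no source used here gives the strand setting of the counting, so reads of these genes cannot be told apart. Dnajc28 (Entrez 246738, GRCm38 chromosome 16, 91614257 to 91618999, - strand) lay low, at 3.83, 3.62, 2.94 and 3.14 CPM in WT and 1.81, 2.35, 1.94 and 1.73 in IL-2-KO, without overlap. It fell by 0.66 on the log2 scale (limma adjusted p = 0.0213). Leaving out WT replicate 1 or 4 ended that call (0.00462 to 0.357 over the alternatives), and an antisense gene overlaps it.

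The other J proteins serve many places. In the cytosol, Dnajc2 (Mpp11), which sits on ribosomes with Hspa14, was at 101, 105, 106 and 104 CPM in WT and 122, 109, 122 and 100.1 in IL-2-KO, and Dnajc21, a factor of ribosome assembly, at 53.9, 60.9, 60.7 and 58.4 and 59.1, 51.0, 54.4 and 50.8. For Dnajc2, IL-2-KO replicates 1, 2 and 3 lay above all WT libraries and replicate 4 below them. For Dnajc21, IL-2-KO values lay within and below the WT range. Neither passed (limma adjusted p = 0.335 and 0.327). On vesicles and endosomes, Dnajc5 (cysteine string protein) was at 195, 156, 213 and 210.1 in WT and 152, 207, 139 and 206 in IL-2-KO, and Dnajc13 (Rme-8) at 116, 81.9, 108 and 114 and 93.1, 148, 107 and 151. Both have long transcripts (6578 and 8012 bases), and both were lowest in WT replicate 2 among WT and in replicates 1 and 3 among IL-2-KO, the libraries in which long transcripts stood low. Neither passed (limma adjusted p = 0.527 and 0.382), and the part of transcript length in their values was not tested. Dnajc6 (auxilin), which uncoats clathrin vesicles with Hspa8, was low, at 1.32, 2.19, 1.61 and 1.99 CPM in WT and 1.54, 0.723, 1.45 and 0.671 in IL-2-KO, with overlap (limma adjusted p = 0.164). In the endoplasmic reticulum, the disulfide reductase gene Dnajc10 (ERdj5) lay at 98.9 ± 10.1 CPM in WT and 95.1 ± 12.8 in IL-2-KO, and the membrane J protein gene Dnajb14 at 6.09, 9.02, 7.90 and 6.34 in WT and 4.31, 4.49, 7.89 and 4.20 in IL-2-KO. For Dnajb14 3 IL-2-KO libraries lay below all WT libraries and replicate 3 within them (log2 change -0.48, limma adjusted p = 0.149).

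Dnajb9 and Dnajb4 differed widely between libraries of 1 group, and they are given with the heat-inducible Dnajb1 and Dnaja1, all 4 singled out after their values were seen. Dnajb9 (ERdj4, a partner of BiP) was at 27.8, 114, 75.0 and 56.3 CPM in WT and 42.8, 26.8, 70.2 and 60.3 in IL-2-KO. Dnajb4 was at 11.6, 35.7, 25.1 and 18.8 and 13.9, 12.1, 26.5 and 18.2. In both genes WT replicate 2 was highest and WT replicate 1 lowest of WT, and IL-2-KO replicate 3 was highest and replicate 2 lowest of IL-2-KO. Dnaja1 had the same highest and lowest libraries, at 159, 233, 208 and 186 in WT and 167, 156, 184 and 165 in IL-2-KO. For Dnajb1 the WT order was alike (65.6, 81.8, 73.3 and 71.0 CPM), while IL-2-KO replicate 1, at 74.6, stood just above replicate 3, at 73.6. The summed immediate early genes were highest and lowest in the same libraries of each group as Dnajb9, and their part in this spread was not tested. None of the 4 passed limma (adjusted p from 0.21 to 0.614; 0 at an unadjusted p under 0.05).

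**Figure D3:**
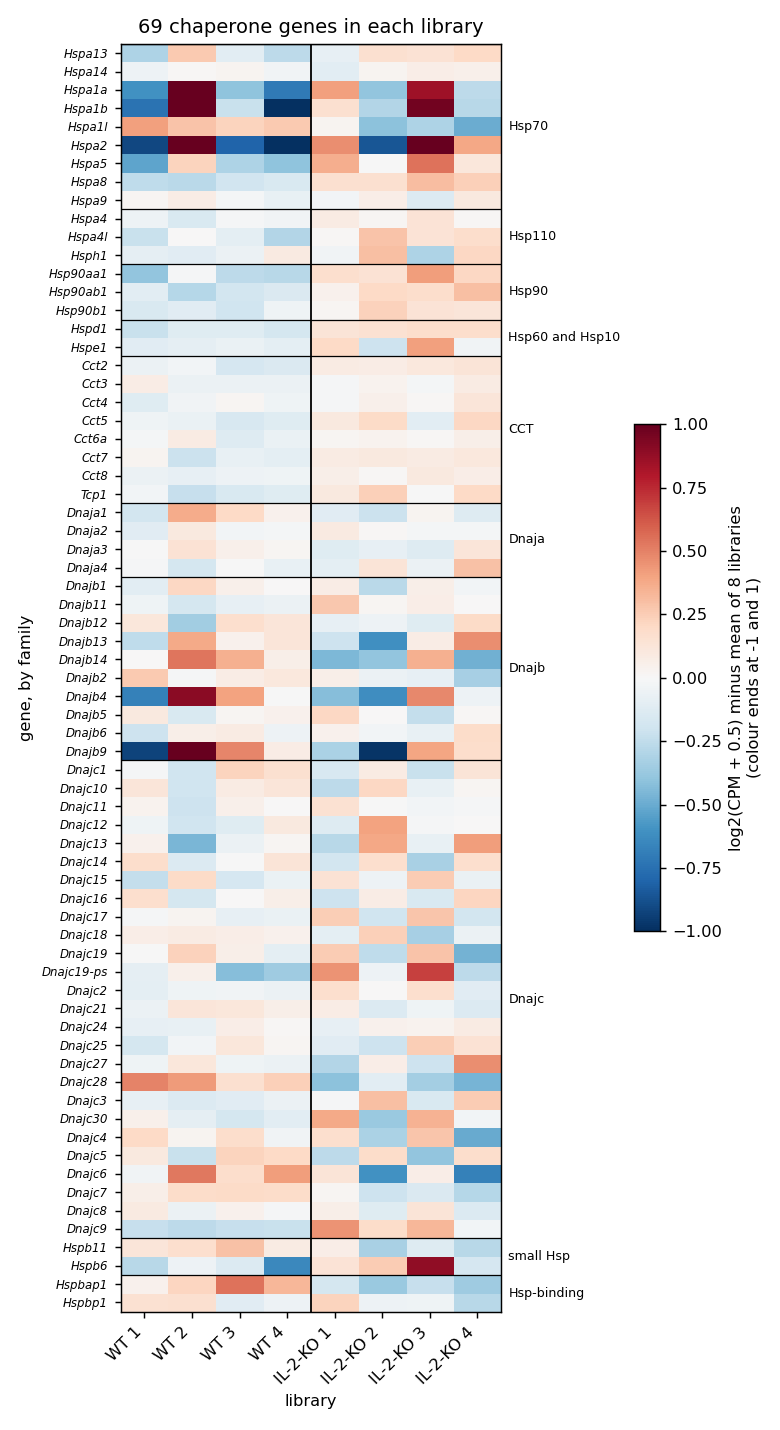
Each of the 69 genes (rows, grouped by family) in each library (columns, WT left of the line), as log2(CPM + 0.5) minus the gene's mean over 8 libraries, with colours ending at -1 and 1. Hsp90aa1, Hspa8 and Hspd1 change colour between the groups, whereas Dnajb9, Dnajb4, Hspa1a, Hspa1b and Hspa2 stand out in single libraries such as WT replicate 2 and IL-2-KO replicate 3.

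All 3 Hsp90 genes rose, against 11.1% of all genes tested. Summed, the 3 Hsp90 genes held 2039 to 2166 CPM in WT and 2457 to 2846 in IL-2-KO. Hsp90aa1 (Entrez 15519, GRCm38 chromosome 12, 110691036 to 110696395, - strand) encodes the inducible cytosolic form. It was at 159, 208, 175 and 173 CPM in WT and 235, 232, 281 and 243 in IL-2-KO. WT replicate 2 and IL-2-KO replicate 3 were the highest of their groups, which did not overlap. The rise was 1.39-fold (179 ± 20.8 to 248 ± 22.6 CPM), a log2 change of 0.47 ± 0.0960 (limma adjusted p = 0.00755), and without those 2 libraries together it was 0.48 (adjusted p = 0.00259, 2.2e-04 to 0.381 over the alternatives).

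Hsp90ab1 (Entrez 15516, GRCm38 chromosome 17, 45567778 to 45573261, - strand), the constitutive cytosolic form, had the highest level per length of the 68 genes with a transcript length, 584 CPM per kb of its longest GENCODE transcript in WT, against 54.5 for Hsp90aa1. Its libraries held 1549.5, 1364, 1468 and 1502 CPM in WT and 1710.5, 1906, 1881 and 2053 in IL-2-KO. All IL-2-KO values lay above all WT values. It rose 1.28-fold (1471 ± 78.6 to 1888 ± 140.4 CPM; limma adjusted p = 0.0246). That call ended when WT replicate 3 or 4 or IL-2-KO replicate 2 was left out, without both WT replicate 2 and IL-2-KO replicate 3, and after the GC and length correction (log2 change 0.27 against 0.36), with an adjusted p of 0.0016 to 0.573 over the alternatives.

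Hsp90b1 (Grp94; Entrez 22027, GRCm38 chromosome 10, 86690841 to 86705444, - strand) is the form of the endoplasmic reticulum, whose promoter is shown above. It stood at 456, 466, 439 and 491 CPM in WT and 512, 594, 555 and 551 in IL-2-KO. The highest WT library, replicate 4, was below the lowest IL-2-KO library, replicate 1. Hsp90b1 rose 1.19-fold (463 ± 21.7 to 553 ± 33.6 CPM; limma adjusted p = 0.0359), a call that was lost when any single library other than IL-2-KO replicate 1 was left out, and with a median shift (adjusted p = 0.0564; 0.00345 to 0.544 over the alternatives).

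In mitochondria, the chaperonin gene Hspd1 (Hsp60; Entrez 15510, GRCm38 chromosome 1, 55077833 to 55088243, - strand) rose. It was at 145, 155, 155 and 149.7 CPM in WT and 185, 188, 191 and 191 in IL-2-KO. Both groups were tight and lay apart. The rise was 1.25-fold (151 ± 4.92 to 189 ± 3.03 CPM), a log2 change of 0.32 ± 0.0580 (limma adjusted p = 0.00412, 2.6e-04 to 0.34 over the alternatives). Hspe1 (Entrez 15528, GRCm38 chromosome 1, 55088148 to 55091317, + strand) encodes Hsp10, the lid of the Hsp60 chamber, and starts head to head with Hspd1 at the promoter shown above, with 112 bases of overlap. Its WT libraries were as tight, at 55.8, 56.8, 57.7 and 56.5 CPM, but its IL-2-KO libraries held 69.3, 52.3, 80.5 and 58.8. IL-2-KO replicate 2 lay below all WT libraries and replicates 1, 3 and 4 above them. Hspe1 did not pass (log2 change 0.18, interval -0.09 to 0.45, limma adjusted p = 0.329), and its change turned to -0.01 with array weights. Its longest transcript has 964 bases against 2423 for Hspd1, and its 2 highest libraries were those in which short transcripts stood highest. Neither the part of transcript length in the Hspe1 values nor the difference between the changes of the 2 genes was tested. Of the other mitochondrial members, Hspa9, Dnaja3, Dnajc11, Dnajc15, Dnajc19 and Dnajc30, none passed limma (0 at an unadjusted p under 0.05). Dnajc15 (MCJ), a brake on respiratory complex I known from CD8 T cells, stood at 57.1 ± 7.84 CPM in WT and 62.8 ± 6.89 in IL-2-KO (limma adjusted p = 0.418).

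CCT subunit genes showed small differences: all 8 log2 changes were above 0, from 0.05 for Cct3 to 0.26 for Tcp1, although Cct3, Cct4 and Cct6a turned below 0 after the GC and length correction and Cct6a also without the libraries of few cells. Of the 8, 1 passed, and of all genes tested 19.2% passed in either direction. Tcp1 (Entrez 21454, GRCm38 chromosome 17, 12916329 to 12925067, + strand), the alpha subunit, was at 262, 228, 240.1 and 245 CPM in WT and 285, 315, 266 and 306 in IL-2-KO. WT replicate 1 came close to IL-2-KO replicate 3, without overlap. Tcp1 rose 1.20-fold (244 ± 14.2 to 293 ± 22.2 CPM; limma adjusted p = 0.0378). Tcp1 did not pass when WT replicate 2, 3 or 4 or IL-2-KO replicate 1, 2 or 4 was left out, with a median shift or after the GC and length correction (adjusted p = 0.0542; 0.00107 to 0.438 over the alternatives). Mrpl18 and Acat3 overlap Tcp1 on the opposite strand.

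Cct2, the most abundant subunit by CPM and per length (228 CPM per kb in WT), was at 458, 468, 425 and 432 CPM in WT and 505, 503, 514 and 520.3 in IL-2-KO. Its groups did not overlap, and it just missed the threshold (log2 change 0.20, interval 0.05 to 0.34, limma adjusted p = 0.0603), passing without WT replicate 2 (0.0494), with quantile normalization and with array weights. Cct7 and Cct8 did not overlap either, at 211 ± 14.5 CPM in WT and 239 ± 2.43 in IL-2-KO and at 346 ± 3.42 CPM in WT and 375 ± 9.60 in IL-2-KO (limma adjusted p = 0.0841 and 0.195). Cct5 stood above all WT values in 3 of 4 IL-2-KO libraries, at 351, 374, 305 and 377 CPM against 318, 313, 293 and 301 in WT (adjusted p = 0.119). WT levels per kb of the longest transcript ran from 54.3 for Cct7 to 228 for Cct2. This range depends on the length used, 3884 bases for Cct7 and 1959 for Cct2. Before division by length the 2 stood at 211 and 446 CPM in WT. Summed over the family, WT libraries held 2292 to 2396 CPM and IL-2-KO libraries 2509 to 2674.

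**Figure D4:**
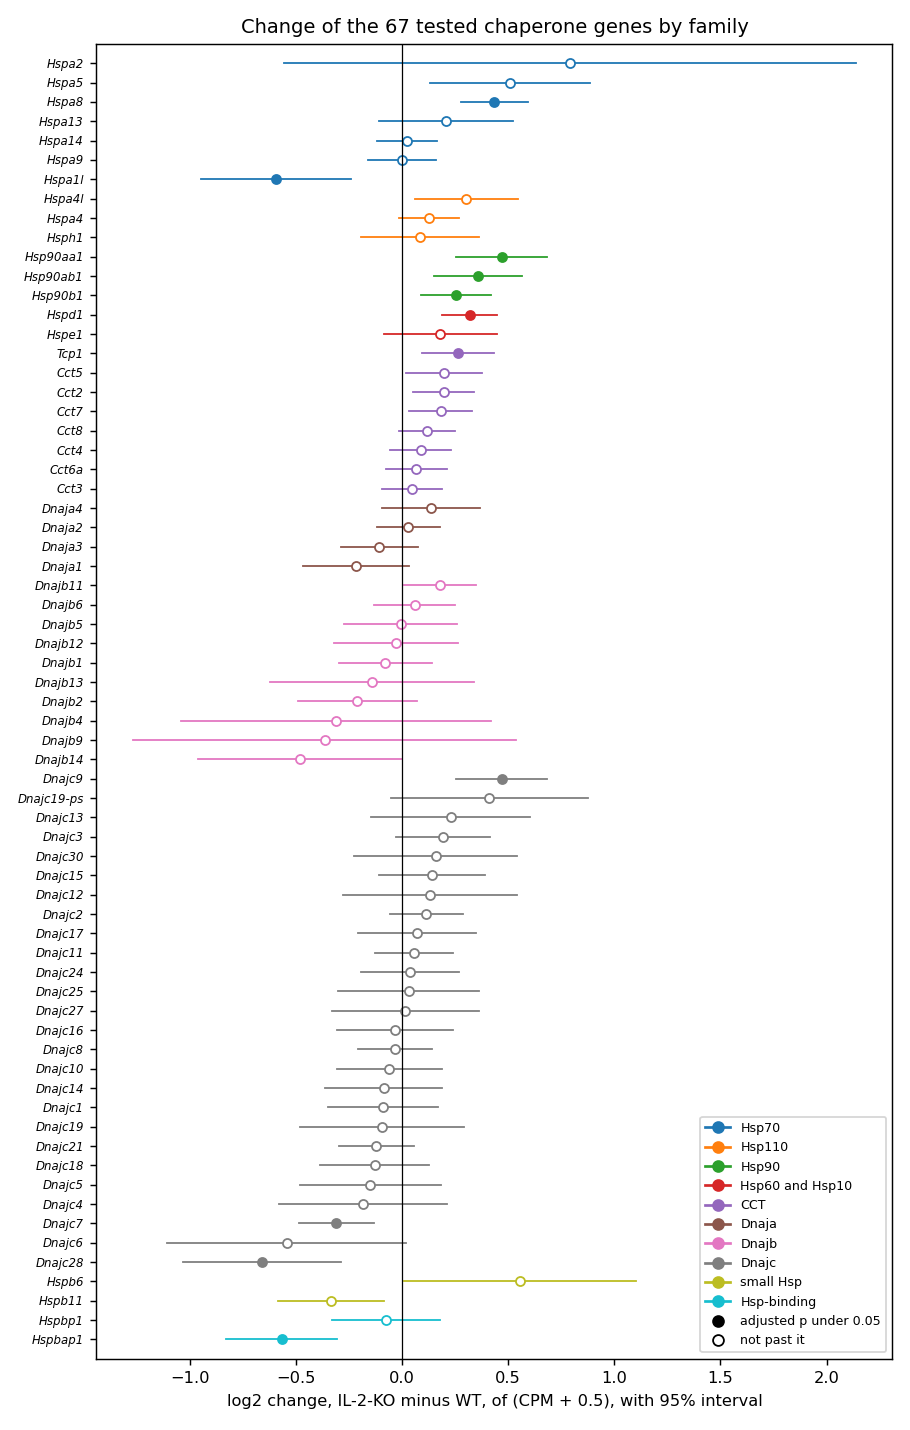
Log2 change (IL-2-KO minus WT, horizontal axis) with its 95% limma interval for each of the 67 tested genes, coloured by family, filled where the adjusted p was under 0.05. All Hsp90, Hsp110 and CCT points lie right of 0 in this scaling, and class B and C J proteins lie on both sides of it.

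By compartment, 5 of 34 tested cytosolic and nuclear genes rose and 2 fell, 1 of 10 in the endoplasmic reticulum rose and none fell, 1 of 8 in mitochondria rose and none fell, and of the 15 of other or unassigned place none rose and 2 fell. Against 11.1% higher and 8.03% lower of all genes tested, these small counts show nothing particular to a compartment. Among the partners of BiP, Dnajb11 (ERdj3) did not overlap, at 121, 111, 118 and 120.0 CPM in WT and 151, 127, 131 and 125 in IL-2-KO, and did not pass (limma adjusted p = 0.127). Dnajc3 (P58IPK), the third gene with a stress element in its window, was at 199.7, 192, 195 and 202 in WT and 209, 259.9, 190.0 and 251 in IL-2-KO (adjusted p = 0.207). IL-2-KO replicates 2 and 4, in which long transcripts stood high, held its highest values, and its transcript has 5141 bases. The part of transcript length in the Dnajc3 values was not tested. Summed over the 10 genes, the endoplasmic reticulum set held 1474 to 1829 CPM in WT and 1885 to 2090.2 in IL-2-KO, with WT replicate 2 the highest of WT. In this sum Hspa5 and Hsp90b1 weigh most, and 5 of the 10 log2 changes were above 0 and 5 below. The 7 J protein genes of the set summed to 559 to 611 CPM in WT and 575 to 646 in IL-2-KO, with overlap.

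**Figure D5:**
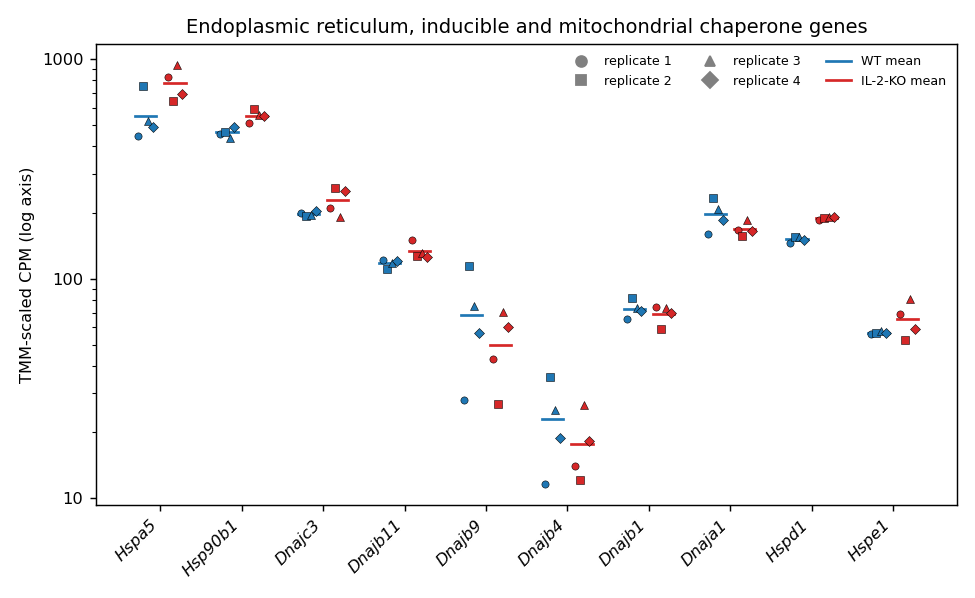
CPM (log axis) of 10 chaperone genes of the endoplasmic reticulum, the heat-inducible set and mitochondria in each WT (blue) and IL-2-KO (red) library, with a shape for each replicate number and a line at each mean. Hsp90b1, Dnajb11 and Hspd1 lie apart between the groups, WT replicate 2 (square) is the highest WT value of Hspa5, Dnajb9, Dnajb4, Dnajb1 and Dnaja1, and Hspe1 spreads only in IL-2-KO.

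The remaining members were binding partners and small heat shock proteins. Hspbap1 (Entrez 66667, GRCm38 chromosome 16, 35769726 to 35828462, + strand), a protein that binds Hspb1, fell. It was at 25.2, 28.4, 35.8 and 30.9 CPM in WT and 21.5, 18.8, 20.7 and 19.0 in IL-2-KO. Even the lowest WT library stood above every IL-2-KO library. It fell by 0.57 in log2 (30.1 ± 4.47 to 20.002 ± 1.34 CPM; SE 0.118, limma adjusted p = 0.00828, 6.0e-04 to 0.426 over the alternatives), and an antisense gene overlaps it. Hspb11, which despite its name is the intraflagellar transport subunit Ift25, was at 22.0, 22.7, 24.8 and 21.3 in WT and 21.1, 16.0, 18.3 and 16.5 in IL-2-KO, without overlap (log2 change -0.33, limma adjusted p = 0.0649). It passed with a median shift, quantile normalization, array weights, the GC and length correction or without IL-2-KO replicate 1 (0.0271). Hspb6 lay at 1.51 to 2.53 CPM in WT and 2.29 to 5.32 in IL-2-KO, with IL-2-KO replicate 3 the highest.

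Genes that work with these chaperones were examined from 6 further lists, of which 96 genes were tested, 9 rose (9.38%, against 11.1% of all genes) and 4 fell (4.17%, against 8.03%), so that as a whole they were called no more often than other genes. The list of folding genes of the endoplasmic reticulum held 7 of these 13: 5 of 24 rose and 2 fell, with a median log2 change of 0.20. Pdia6, a protein disulfide isomerase, was at 126, 119, 109 and 117 CPM in WT and 156, 155, 156 and 156 in IL-2-KO, and it rose 1.32-fold (limma adjusted p = 0.00193). Sdf2l1, which works with ERdj3 and BiP, rose 1.91-fold (15.4 ± 3.38 to 29.5 ± 3.10 CPM; adjusted p = 0.00347). The others that rose were the isomerase gene Pdia3, the lectin chaperone gene Calr and Derl3, and those that fell were Herpud1 and Sdf2. These 5 were chosen after their values were seen, to complete the count. Beside this list, 3 of 4 listed markers of plasma cells, which are rich in endoplasmic reticulum, also rose: Irf4, Txndc5 and Derl3 rose and Prdm1 did not pass. Activated T cells also express Irf4 and Prdm1, Derl3 is in both lists, and Jchain, Sdc1, Mzb1 and Tnfrsf17 were not listed. Their summed level was 99.3 to 118 CPM in WT and 164 to 197 in IL-2-KO, and their part in the result was not tested. Of 12 regulators of the unfolded protein response, none passed limma (2 at an unadjusted p under 0.05), with Nfe2l2 at 86.9 ± 3.44 CPM in WT and 77.8 ± 2.96 in IL-2-KO (adjusted p = 0.115) and Atf6 at 31.7 ± 2.06 CPM in WT and 40.8 ± 8.22 in IL-2-KO (0.117).

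Of 4 heat shock factor genes tested, 1 rose and 1 fell. Among all genes tested 11.1% rose and 8.03% fell, the shares to set beside each list given here. Hsf2 was at 26.8, 29.8, 31.8 and 29.5 CPM in WT and 22.2, 25.0, 25.5 and 21.5 in IL-2-KO, and it fell by 0.32 on the log2 scale (limma adjusted p = 0.0444). Hsf4 was low, at 1.02, 1.60, 0.633 and 1.33 in WT and 2.14, 1.69, 3.07 and 2.40 in IL-2-KO, and rose 1.74-fold (0.0467). The Hsf2 call was lost when WT replicate 1, 2, 3 or 4 or IL-2-KO replicate 1, 2 or 4 was left out (adjusted p 0.044 to 0.143 with 1 library left out), and the Hsf4 call when WT replicate 1, 3 or 4 or IL-2-KO replicate 1, 3 or 4 was (0.0295 to 0.134). Hsf2 also did not pass after the GC and length correction (0.0674), nor Hsf4 with a pseudocount of 0.1 (0.0504) or quantile normalization (0.0874). Without the libraries of few cells adjusted p was 0.633 for Hsf2 and 0.685 for Hsf4. Of 25 cytosolic co-chaperones 2 rose and none fell: Bag2, an inhibitor of the ubiquitin ligase Stub1, rose 1.83-fold (2.91 ± 0.537 to 5.86 ± 1.497 CPM; limma adjusted p = 0.0178), and Fkbp5, an Hsp90-binding immunophilin, 1.22-fold (73.0 ± 5.85 to 89.1 ± 4.62; 0.0282). Neither call held throughout. Bag2 did not pass when WT replicate 1, 3 or 4 or IL-2-KO replicate 2 was left out (limma adjusted p 0.0035 to 0.0598 with 1 library left out). Fkbp5 did not pass without WT replicate 1 or 4 or IL-2-KO replicate 1 or 2 (0.0294 to 0.0965 with 1 library left out). Without the libraries of few cells Bag2 (0.546) and Fkbp5 (0.304) did not pass, nor did Fkbp5 with replicate number as a block (0.0847). Of 17 prefoldin and chaperonin cofactors 1 fell, the prefoldin-like gene Uxt, by 0.45 in log2 (15.4 ± 1.87 to 11.1 ± 1.27 CPM; limma adjusted p = 0.0373), and Pfdn1 lay at 29.7 ± 1.51 CPM in WT and 39.9 ± 9.50 in IL-2-KO (0.101). Of 14 mitochondrial chaperones and proteases 1 rose, Hscb, a J protein of iron-sulfur cluster assembly, at 23.4, 26.9, 23.2 and 23.4 CPM in WT and 38.5, 29.8, 43.7 and 30.3 in IL-2-KO (1.44-fold, limma adjusted p = 0.0199), while Grpel2, an exchange factor for Hspa9, lay at 40.5 ± 2.12 CPM in WT and 33.7 ± 2.17 in IL-2-KO (0.0528). The Uxt call ended without WT replicate 1, 3 or 4 or IL-2-KO replicate 1 or 3 (limma adjusted p 0.0156 to 0.119 with 1 library left out). The Hscb call ended without WT replicate 1, 3 or 4 (0.0146 to 0.0647 with 1 library left out). Both also ended without the libraries of few cells (0.591 for Uxt and 0.407 for Hscb) and with replicate number as a block (0.104 and 0.0584). Hscb was highest in IL-2-KO replicates 1 and 3, in which short transcripts stood high. After the GC and length correction its log2 change was 0.36, against 0.53 before, and still passed (limma adjusted p = 0.0086).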

How the data were processed

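The authors deposited 1 table of signal values, 1 per gene and library, which its title calls CPM after TMM scaling. Tools named in the submitters' processing notes, without roles, are limma 3.34.9, featureCounts and R 3.4.3, with builds GRCm38 and mm10. The aligner and the strand setting are not given in the sources used here. Column sums ran from 988292 to 1022953. Low values came in steps of 0.01 read, and only 54.6% to 65.0% of them were whole reads, so reads of paralogs and overlapping genes may be shared and no count test was run. Depth was recovered from these steps. No 2 libraries of a group were duplicates (chi-square per gene 4.97 or more).

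Entrez identifiers were matched to RefSeq symbols of GRCm38 (11651 of 11723). Genes with at least 1 CPM in at least 4 of 8 libraries were tested as log2(value + 0.5) by limma 3.58.1 in R 4.3.3 (empirical Bayes with a trend, Benjamini-Hochberg over 11530 genes, threshold 0.05). The design fixed in advance expected CPM, and the unit is a TMM-scaled signal, for which the test was kept. Transcript length and GC content came from the longest GENCODE M21 transcript. The steps were tested on simulated data. The genes and lists were chosen with earlier results of these data known. Genes named were the 11 that passed, the most abundant of each family and the 2 with the smallest adjusted p of each of 6 related lists. A further 27 members were singled out after their values were seen. Hspa1a, Hspa1b, Hspa13, Hspa14, Dnaja3, Dnajc11, Dnajc19 and Dnajc30 were mentioned outside these sets. Outlying libraries and sign changes of these genes were not examined. Replicate numbers are shared between the groups, and the labels do not state that they pair libraries. Alternatives were other pseudocounts, filters, scalings, weights, a cell number covariate, a replicate block, libraries left out and, added after the data were seen, a correction for GC content and length.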

Additional observations from a re-analysis of the deposited data

Results flagged for a closer look

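In 9 of 112 groups of 4 libraries (56 named genes), 1 library lay far from the other 3 by Dixon's criterion, which chance meets in about 1 of 20 groups. The values, in CPM, were as follows: Dnajc9 was 119 in WT replicate 2 against 122 to 122, Dnajc7 was 450.4 in WT replicate 1 against 491 to 493, Cct3 was 258 in WT replicate 1 against 236 to 236, Hspa2 was 7.25 in WT replicate 2 against 0.844 to 1.27, Dnajb14 was 7.89 in IL-2-KO replicate 3 against 4.20 to 4.49, Dnajc10 was 83.8 in WT replicate 2 against 102 to 105, Bag2 was 3.71 in WT replicate 2 against 2.59 to 2.75, Hscb was 26.9 in WT replicate 2 against 23.2 to 23.4, and Nfe2l2 was 92.1 in WT replicate 4 against 84.7 to 85.6. Of the 9 values, 5 were of WT replicate 2, which also held more B cell, myeloid and immediate early transcripts than the other WT libraries, and their part was not tested.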

How the results depend on the processing

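With 1 library left out, 4 to 7 chaperone genes rose and 1 to 5 fell (7 and 4 with all libraries), 1285 to 2205 of all genes passed (2211), and 5 to 11 genes of the 6 related lists rose and 0 to 4 fell (9 and 4). Without the 4 libraries of few cells (1300000 or fewer), limma called 0 and 0 chaperone genes, 0 and 0 related genes (6 higher and 0 lower at an unadjusted p under 0.05) and 384 of all genes, from 2 libraries a group. Array weights gave 16 and 8, 20 and 14, and 4359. With a minimum of 5 CPM, 2 falling chaperone genes passed, with 61 tested. Dnajc28 and Hspa1l did not meet that filter and were not tested under it. More falling chaperone genes passed with quantile normalization (7). Related genes that fell numbered 2 with an untrended prior, 1 with the cell number covariate and 9 after the GC and length correction. That correction gave 1178 higher and 1781 lower among all genes. The cause of the other moves was not tested.

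A replicate block left 4 chaperone genes higher and 1 lower, 0 related genes lower (5 at an unadjusted p under 0.05) and 1397 of all genes called. Same-numbered libraries did not consistently deviate together (correlations 0.08, -0.53, -0.40 and 0.39), and WT replicate 2 and IL-2-KO replicate 3 correlated at 0.66. These are deviations from means of only 4 libraries, shaped by trends of whole libraries. They cannot settle whether the numbers pair libraries, and shared litters or batches were not tested.

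Sign changes concerned uncalled genes: the log2 change turned for Hspa9 (-0.028 with a median shift, -0.0067 with quantile normalization, -0.078 after the GC and length correction, -0.028 without the libraries of few cells, -0.032 to 0.045 with 1 library left out). It turned for Hspe1 with array weights (-0.011), for Dnaja2 (-0.036), Dnajb6 (-0.019), Cct3 (-0.027), Cct4 (-0.0031) and Cct6a (-0.028) after the GC and length correction, and for Cct6a (-0.00094) and Hspa2 (-0.40) without the libraries of few cells. With 1 library left out, Dnaja2 ran from -0.0027 to 0.068, Hsph1 from -0.0028 to 0.20, Hspbp1 from -0.16 to 0.0054 and Dnajc10 from -0.14 to 0.018. Dnajc10 also turned with array weights (0.017) and without the libraries of few cells (0.012), where Dnajc5 did too (0.022).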
